A study of Mus musculus with 12 samples.

Results

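Messenger RNAs of pancreatic digestive enzymes were measured in every library of mouse small intestine in this series. Within every group, the ratio of the highest to the lowest summed level exceeded the ratio of the wild type to the knockout mean. That ratio of means was 1.68 in neonates and 2.36 in adults. Extremes of single libraries spread wider than means of 3 libraries, so the ratios are unlike measures. The genes described here are 10 products of the pancreatic acinar cell: Cela1, Cela2a, Cela3b, Ctrb1, Prss2, Cpa1, Cpb1, Pnlip, Cel and Clps. They were looked up by gene symbol in the adult table and carried to the neonate table by Entrez Gene identifier, and all 10 were found in both, out of 23319 genes that the tables share. Pancreatic acinar cells make digestive enzymes, many of them as inactive zymogens, store them in granules and release them through the pancreatic duct into the duodenum. In the gut lumen enteropeptidase of the duodenal brush border turns trypsinogen into trypsin, which then activates the other zymogens. The acinar programme is driven by the PTF1 complex, in which the helix-loop-helix factor PTF1A binds an E-box together with RBPJL at a neighbouring site. The genes were taken as a sign of pancreas tissue carried along at dissection. The labels name small intestine as the tissue, and the source of the reads was not tested.

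The study compared wild type mice (WT) with mice labelled NCoR1 intestinal KO (KO), at 12 days (neonates) and at 10 weeks (adults). NCoR1 is a corepressor recruited by nuclear receptors. The tissue was entire small intestine, frozen and pulverized, of strain C57BL/6 per the labels, and the RNA of 2 mice was pooled for each of the 3 libraries of a group. The strain names F/FUN and DIECUN stand in the design text without explanation, and the sources used here do not name the driver of the deletion. Reads in genes ranged from 5930748 to 9340917 in neonate and from 9775420 to 13057329 in adult libraries. Levels are given as CPM, the reads of a gene per 1000000 reads in genes of the library, or per length as RPKM. Ncor1 was lower in KO than in WT libraries at both ages (log2 difference -0.97, SE 0.0563, in neonates and -0.58, SE 0.0735, in adults, with limma adjusted p = 1.73e-10 and 0.00021). As a check of the tissue, listed genes of the small intestinal epithelium (Vil1, Lct, Sis, Fabp2, Apoa4, Muc2, Chga, Lgr5, of which 7 are in the neonate table) summed to 51177 CPM or more in every neonate library and to 32597 CPM or more in every adult library.

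The 10 genes lie apart in the genome, on 8 chromosomes of build mm9, which the deposited tables use. The proteases were Cela1 (Entrez Gene 109901) on chromosome 15 from 100504853 to 100518351, Cela2a (Entrez Gene 13706) on chromosome 4 from 141370878 to 141381918, Cela3b (Entrez Gene 67868) on chromosome 4 from 136976923 to 136986435, Ctrb1 (Entrez Gene 66473) on chromosome 8 from 114210410 to 114214910 and Prss2 (Entrez Gene 22072) on chromosome 6 from 41471775 to 41475078. The carboxypeptidases were Cpa1 (Entrez Gene 109697) on chromosome 6 from 30589221 to 30595361 and Cpb1 (Entrez Gene 76703) on chromosome 3 from 20149383 to 20174651. The lipid-digesting enzymes were Pnlip (Entrez Gene 69060) on chromosome 19 from 58744855 to 58756278 and Cel (Entrez Gene 12613) on chromosome 2 from 28411340 to 28418882, and colipase was Clps (Entrez Gene 109791) on chromosome 17 from 28695159 to 28697659. All values are reads in exons of these genes, and the exon length used was the same in both tables for all 10.

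The sequences before the start sites are shown for 4 of the 10 genes, as RefSeq gives them for build GRCm38.p6 (9 of the 10 had an entry, Clps did not). Each line holds the 250 bases before the annotated start, 5′ to 3′ on the gene's strand. Capitals mark the E-box CANNTG and the core TGGGAA, which reads TTCCCA on the opposite strand, the letters searched on both strands for the parts of a PTF1 site. Cela2a and Cel hold both, Ctrb1 holds them 5 bases apart, and Pnlip holds the core and no E-box. No marked match overlaps another in these windows.
Cela2a, chr4:141826006-141826255, minus strand: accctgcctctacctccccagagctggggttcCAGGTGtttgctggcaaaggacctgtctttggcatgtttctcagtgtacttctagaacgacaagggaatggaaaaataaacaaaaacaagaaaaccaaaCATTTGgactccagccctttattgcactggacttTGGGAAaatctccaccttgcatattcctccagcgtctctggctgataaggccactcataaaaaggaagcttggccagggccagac
Ctrb1, chr8:111691011-111691260, minus strand: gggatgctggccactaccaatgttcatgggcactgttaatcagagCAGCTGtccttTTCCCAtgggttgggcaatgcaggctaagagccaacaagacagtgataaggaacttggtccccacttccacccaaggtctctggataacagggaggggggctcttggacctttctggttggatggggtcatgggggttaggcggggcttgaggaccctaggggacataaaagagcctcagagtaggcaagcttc
Cel, chr2:28563404-28563653, minus strand: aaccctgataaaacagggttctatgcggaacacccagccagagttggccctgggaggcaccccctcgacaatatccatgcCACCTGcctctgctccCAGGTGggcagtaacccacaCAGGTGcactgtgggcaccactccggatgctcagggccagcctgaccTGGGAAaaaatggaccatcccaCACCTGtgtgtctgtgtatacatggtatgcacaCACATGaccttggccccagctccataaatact
Pnlip, chr19:58670115-58670364, plus strand: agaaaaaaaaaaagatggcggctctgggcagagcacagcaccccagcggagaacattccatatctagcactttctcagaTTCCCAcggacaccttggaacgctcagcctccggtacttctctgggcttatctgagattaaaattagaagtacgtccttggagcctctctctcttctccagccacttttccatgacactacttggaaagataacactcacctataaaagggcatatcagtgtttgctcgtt
An E-box was found in 8 of the 9 windows (all but Pnlip), against 66.2% of 32851 promoter windows of the same length. The core was found in 6 of the 9 (Cela2a, Ctrb1, Cpa1, Pnlip, Prss2 and Cel), against 21.6%, and both in 5 of the 9, against 14.8%. A match describes the letters and shows no binding, and its absence says only that these letters are not in the window.

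Together the 10 genes took up between 0.0579% and 0.728% of the reads in genes of a library. In neonates the share was 0.134%, 0.241% and 0.471% in WT libraries 1 to 3 and 0.143%, 0.266% and 0.0937% in KO libraries 1 to 3. In adults it was 0.246%, 0.728% and 0.290% in WT and 0.216%, 0.0579% and 0.261% in KO libraries. WT 3 was the highest and KO 3 the lowest of the neonate libraries, with WT 2 highest and KO 2 lowest among adults, and the WT and KO ranges overlapped at both ages. The 95% Wilson intervals, which cover counting error only, were 0.723 to 0.733% for WT adults 2 and 0.0566 to 0.0592% for KO adults 2, so the gap between these libraries was far wider than counting error. The highest library stood 5.02-fold above the lowest in neonates and 12.6-fold in adults. Mean shares were 0.282% ± 0.172 (SD, n = 3) in WT and 0.168% ± 0.0889 in KO neonates, and 0.421% ± 0.267 in WT and 0.178% ± 0.107 in KO adults. KO adults 2 held the most reads in genes of all libraries (13057329) and KO neonates 3 the fewest (5930748), so the lowest shares fell at both ends of the depth range. In tissue RNA, fewer acinar cells and less RNA per acinar cell cannot be told apart.

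**Figure D1:**
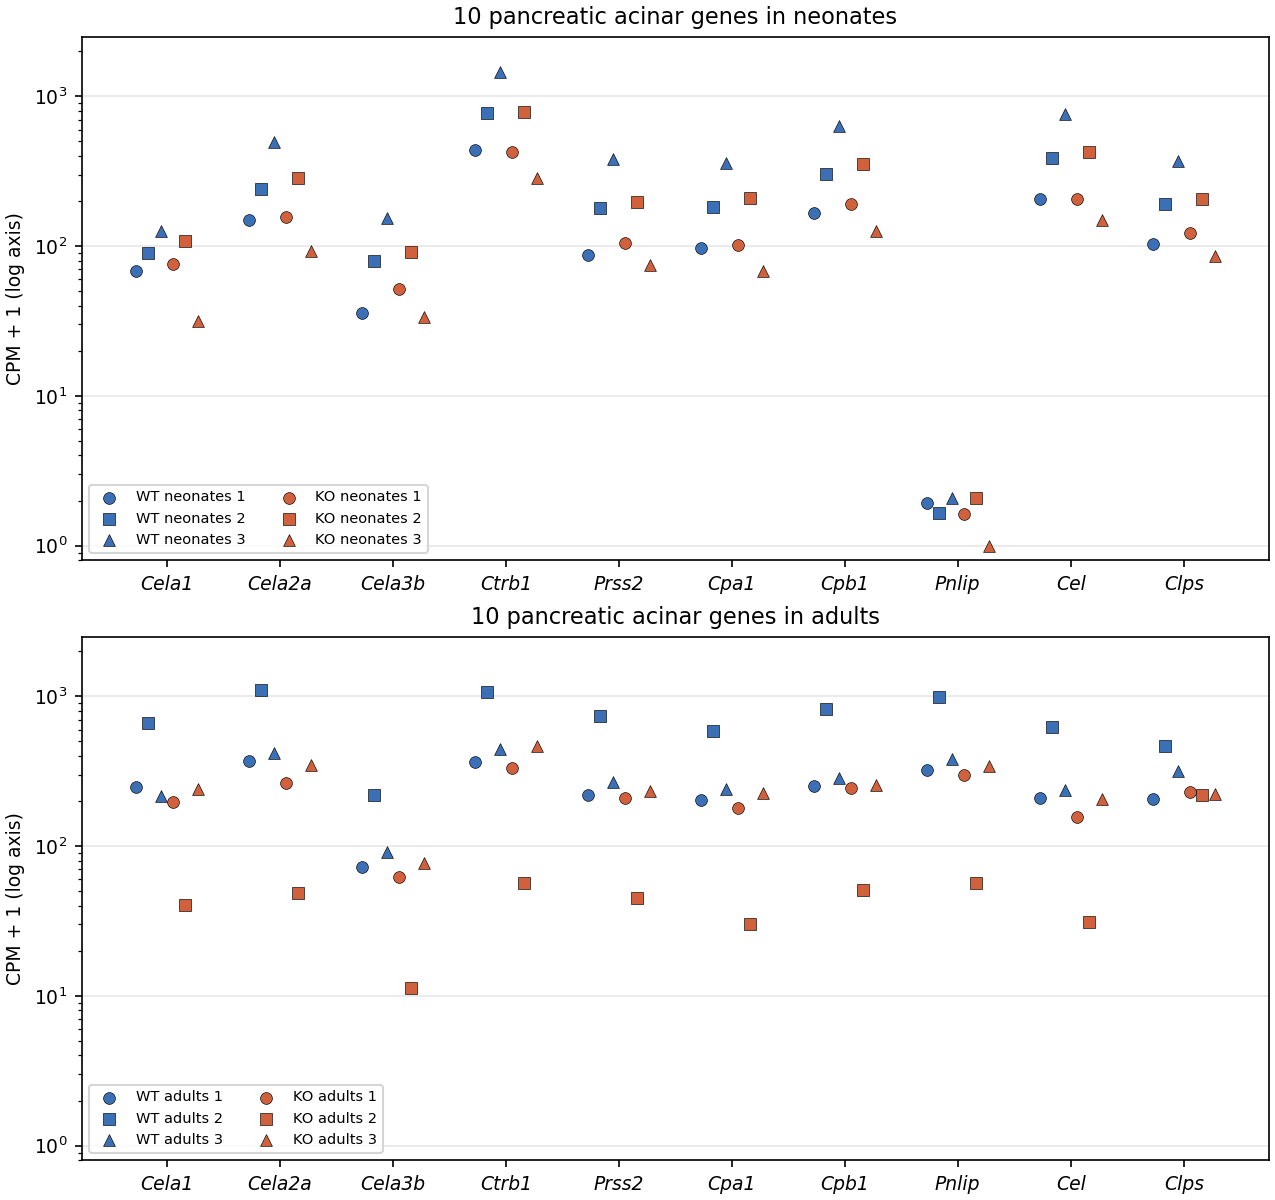
Level of each of the 10 acinar genes in the 6 neonate (top) and 6 adult (bottom) libraries, as CPM + 1 on a log axis. Each point is 1 library, blue for WT and orange for KO, with the shape giving the replicate. In adults WT 2 is the highest library for all 10 genes and KO 2 the lowest for all but Clps, and in neonates Pnlip lies at 1.08 CPM or less.

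Cela1, Cela2a and Cela3b encode pancreatic elastases, which cleave proteins. Cela1, which in mice is made in pancreas as well as in some other tissues, stood at 67.7, 88.5 and 126 CPM in the WT neonates against 74.9, 107 and 30.9 CPM in the KO neonates. In adults Cela1 was at 246, 666 and 214 CPM in the WT adults against 197, 39.3 and 239 CPM in the KO adults. WT adults 2 was far above and KO adults 2 far below the other 4 adult libraries, among which WT and KO were mixed. Cela2a was at 148, 239 and 493 CPM in the WT neonates against 156, 286 and 91.2 CPM in the KO neonates. In adults Cela2a was at 369, 1099 and 421 CPM in the WT adults against 262, 47.9 and 348 CPM in the KO adults. Here every KO adult library lay below every WT adult library. In neonates the highest library was again WT 3 and the lowest KO 3. Cela3b was at 35.0, 78.4 and 153 CPM in the WT neonates against 50.8, 89.8 and 32.5 CPM in the KO neonates, and at 71.6, 218 and 90.7 CPM in the WT adults against 60.8, 10.3 and 76.6 CPM in the KO adults. Its adult groups overlapped, since KO 3 lay above WT 1. The highest adult library exceeded the lowest 16.9-fold for Cela1, 23.0-fold for Cela2a and 21.0-fold for Cela3b, against 4.07, 5.41 and 4.71-fold in neonates.

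Ctrb1 encodes chymotrypsinogen B, and Prss2 a trypsinogen. Per length Ctrb1 was the highest of the 10 genes in every neonate library, and in CPM it was at 437, 768 and 1446 CPM in the WT neonates against 424, 790.5 and 285 CPM in the KO neonates. In adults it was at 364, 1072 and 447 CPM in the WT adults against 334, 55.9 and 466 CPM in the KO adults. KO adults 3 lay above WT 1 and WT 3, so the adult groups overlapped even though their means stood at 628 ± 387 CPM in WT against 285 ± 209 CPM in KO (SD, n = 3). Prss2 was at 85.9, 179.9 and 379.8 CPM in the WT neonates against 104, 196 and 73.5 CPM in the KO neonates, and at 218, 733 and 266 CPM in the WT adults against 207, 44.3 and 232 CPM in the KO adults. Prss2 has close copies among the mouse trypsinogen genes (Try4, Try5, Try10, Prss1, Prss3), and the sources used here do not say how reads that match several places were treated, so the split of reads among these copies is uncertain.

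The carboxypeptidases take amino acids off the end of a peptide, Cpa1 with a preference for aromatic and aliphatic residues and Cpb1 for basic ones. Cpa1 was at 96.7, 182 and 355 CPM in the WT neonates against 101, 209 and 66.8 CPM in the KO neonates. In adults Cpa1 was at 201, 588 and 241 CPM in the WT adults against 179, 29.4 and 224 CPM in the KO adults. Both ages showed the library order of the elastases, with WT 3 high and KO 3 low in neonates, and WT 2 high and KO 2 low in adults. Cpb1 was at 164, 302 and 628 CPM in the WT neonates against 189, 353 and 125 CPM in the KO neonates, and at 252, 821 and 285 CPM in the WT adults against 242, 49.8 and 255 CPM in the KO adults. Apart from WT 2 and KO 2, the adult libraries held Cpb1 between 242 and 285 CPM, whatever the genotype.

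Pancreatic lipase, encoded by Pnlip, splits dietary triglycerides, and in rats its mRNA is low before weaning. It had 5 to 9 reads in 5 of the neonate libraries and 0 in KO neonates 3, where a count of 0 allows up to 0.506 CPM (3 reads). That is 0.937, 0.642 and 1.07 CPM in WT against 0.631, 1.08 and 0 CPM in KO neonates. In adults Pnlip was at 322, 995 and 382 CPM in the WT adults against 296, 55.3 and 342 CPM in the KO adults, or 722 to 11209 reads. Cel encodes carboxyl ester lipase, a bile salt-activated enzyme with broad substrates, and was well measured at both ages. Cel was at 205, 385 and 758 CPM in the WT neonates against 207, 425 and 147 CPM in the KO neonates, and at 209, 625 and 237 CPM in the WT adults against 155, 30.02 and 206 CPM in the KO adults. The adult Cel groups did not overlap, with KO 3 at 206 CPM just below WT 1 at 209 CPM. Among the 10 genes, only Cela2a and Cel had all KO adult libraries below all WT adult libraries. Of all 13463 genes tested in adults 27.8% did so in that direction (38.3% in either), and in neonates 0 of the 9 genes tested were without overlap, against 36.9% of 14215 in either direction and 28.3% with KO lower.

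Clps encodes colipase, the cofactor that anchors pancreatic lipase to bile salt-covered fat droplets. In neonates it moved with the others, at 102, 189 and 368 CPM in the WT neonates against 121, 206 and 85.1 CPM in the KO neonates. In adults it did not: Clps was at 204, 465 and 315 CPM in the WT adults against 227, 217 and 220.3 CPM in the KO adults. KO adults 2, where the other 9 genes lay between 10.3 and 55.9 CPM, held Clps at the level of the other KO adult libraries, and the highest adult library exceeded the lowest only 2.28-fold. Per length, Clps made up 155% of the summed RPKM of the 8 members other than Clps and Pnlip in KO adults 2, and 17.5 to 31.3% in the other adult libraries. In neonates this ratio was 18.2 to 22.3%. Pnliprp2, pancreatic lipase-related protein 2, which is also known from gut, departed from the members in the same adult library, at 261, 477 and 478 CPM in the WT adults against 403, 564 and 289.8 CPM in the KO adults, while in neonates it was at 19.2, 31.9 and 52.8 CPM in the WT neonates against 25.9, 38.1 and 19.2 CPM in the KO neonates. Klk1, a tissue kallikrein, also varied little in adults, at 68.1, 129.9 and 97.4 CPM in the WT adults against 69.5, 62.5 and 65.9 CPM in the KO adults. Its highest adult library exceeded the lowest 2.08-fold, and against the 8 members it stood at 25.2% in KO adults 2. Rnase1, pancreatic ribonuclease, had a wider adult range, 7.83-fold, with the lowest value in KO adults 2.

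**Figure D2:**
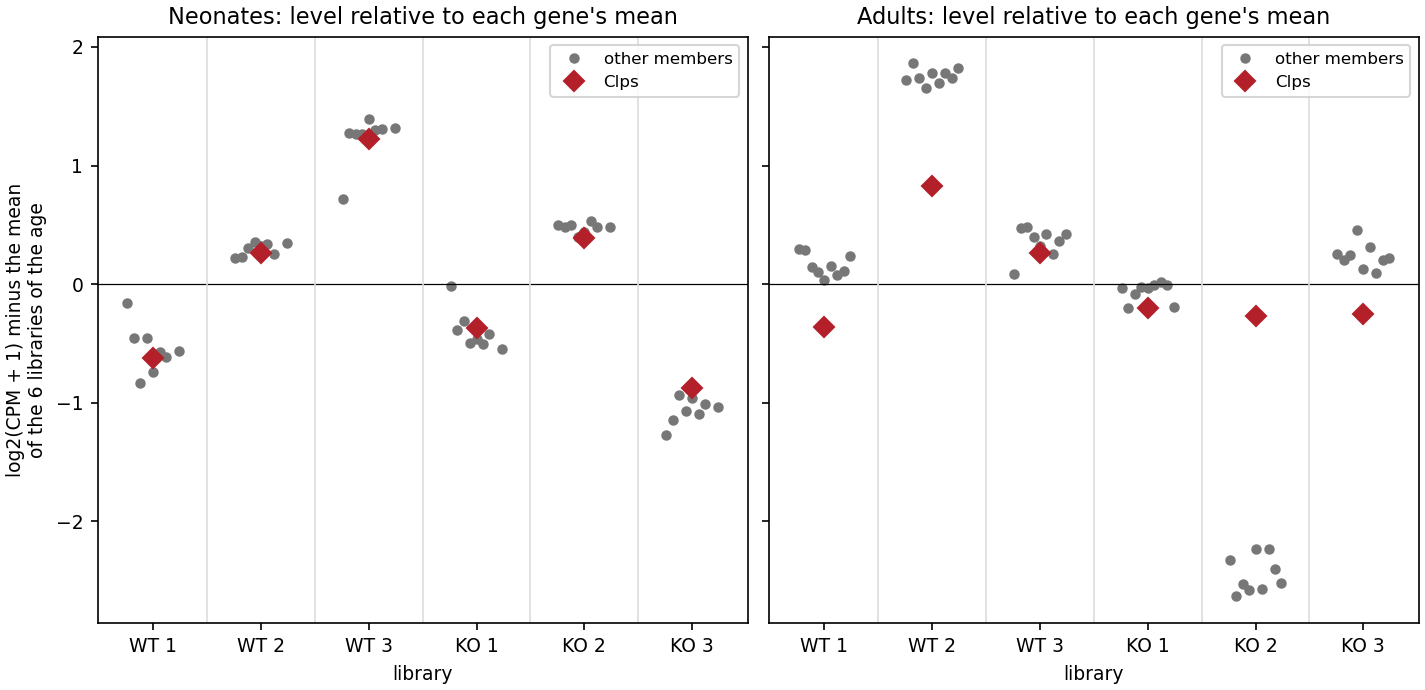
Level of each acinar gene in a library relative to its own mean over the 6 libraries of the age, on the log2(CPM + 1) scale, for neonates (left, without Pnlip) and adults (right). Grey points are single genes and the red diamond is Clps, which follows the other genes in neonates and stays near its mean in KO adults 2, where the other 9 lie more than 2 units below theirs.

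The members shared a library order in which WT and KO libraries were mixed. In neonates all 9 genes that passed the filter (3 or more libraries with at least 1 CPM) were highest in WT 3 and lowest in KO 3, an order found in 4.56% of the 14215 genes tested, and 8 of them ran WT 3, KO 2, WT 2, KO 1, WT 1, KO 3 from high to low. In adults 9 of the 10 were highest in WT 2 and lowest in KO 2, an order found in 9.75% of the 13463 genes tested. Both pairs of libraries were taken from the extremes of the members' own summed level. The members' agreement with them was therefore largely fixed in advance, and these shares of all genes give it no support. The size of the spread was less common. In adults the highest library was at least 10-fold above the lowest, on the CPM + 1 scale, for 9 of the 10 members and for 0.275% of genes tested (37 genes). In neonates it was at least 4-fold above for 8 of the 9 and for 0.753% of genes tested (107 genes), Cela1 at 30.9 to 126 CPM being the exception. Both folds were chosen after the values were seen. Of the 37 adult genes 19 had WT 2 highest and KO 2 lowest: 9 were members, 8 others came from the list of other acinar secretory genes, and the remaining pair were Pdia2, a protein disulfide isomerase known from pancreas, and the provisional gene 2210010C04Rik. Of the 107 neonate genes 20 had WT 3 highest and KO 3 lowest: 8 members, 8 other acinar secretory genes, Ins1, Ins2, 2210010C04Rik and Tmprss6, a serine protease known from liver.

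Likeness to the members was measured for 13736 genes as Pearson's r over the 6 libraries of an age with the mean log2(CPM + 1) of the members, taking the lower of the neonate and adult r. The 6 libraries share the scaling to a common total, and r is given as a description. Among the 10 most alike genes outside the members were Pla2g1b, Ctrl, Pnliprp1, Sycn, Cuzd1, Rnase1, Try5, Prss3 and Try4, with a lower r from 0.991 for Pla2g1b down to 0.960 for Try4. All 10 belong to the list of other acinar secretory genes, on which Pla2g1b is the pancreatic phospholipase A2, Ctrl a chymotrypsin-like protease and Sycn syncollin of the zymogen granule. Ctrl was at 118, 338 and 142 CPM in the WT adults against 92.3, 16.2 and 116 CPM in the KO adults, and at 61.8, 117 and 251 CPM in the WT neonates against 58.6, 131 and 51.1 CPM in the KO neonates. Pla2g1b was at 13.6, 46.1 and 13.6 CPM in the WT adults against 9.58, 1.76 and 16.3 CPM in the KO adults. Both had the highest adult value in WT 2 and the lowest in KO 2. The provisional gene 2210010C04Rik, which the naming rule leaves out, had r of 0.993 in neonates and 0.999 in adults. Among the members, which themselves enter the mean, r was lowest for Clps (0.995 in neonates and 0.691 in adults) and Pnlip (0.727 in neonates and 0.9996 in adults). Spink3 and Zg16, listed with the acinar genes but also made by the gut, did not follow, with r of 0.0492 in neonates and 0.196 in adults for Spink3 and -0.114 in neonates and 0.783 in adults for Zg16.

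Other pancreatic genes gave a mixed picture. Of 26 other acinar secretory genes listed, 23 were in both tables and 18 passed the filter at each age, and 12 of the 18 in neonates and 15 of the 18 in adults had the members' highest and lowest library. Their summed level was 1539 to 3222 CPM in WT against 1166 to 2054 CPM in KO neonates, and 4356 to 5789 CPM in WT against 2869.8 to 3518 CPM in KO adults. Most of the adult sum was Zg16 and Spink3, and without this pair, left out after its values were seen, the other 21 genes summed to 601, 1254 and 2458 CPM in WT against 699, 1334 and 485 CPM in KO neonates, and to 946, 2588 and 1349 CPM in WT against 1094, 787 and 1054 CPM in KO adults, so that the genotypes overlapped at both ages. The pancreatic amylase entries Amy2a2, Amy2a3, Amy2a4 and Amy2a5 had 0 reads in all 12 libraries. These are near-identical copies, and Amy2b, the only pancreatic amylase entry with reads, was at 4.08, 15.4 and 5.52 CPM in the WT adults against 3.22, 0.996 and 5.37 CPM in the KO adults. Of the acinar transcription factors, Ptf1a did not exceed 0.535 CPM in any library. Rbpjl, its partner in PTF1, was at 1.64, 3.96 and 6.04 CPM in the WT neonates against 1.77, 3.73 and 2.19 CPM in the KO neonates. WT 3 was again highest, but WT 1 was lowest. Of the transcription factors tested, 2 of 5 had the members' highest and lowest library at each age, Bhlha15 and Xbp1 in neonates and Rbpjl and Nr5a2 in adults. Cckar, the cholecystokinin receptor through which the hormone acts on the pancreas, was at 4.34, 7.60 and 12.3 CPM in the WT neonates against 4.17, 6.98 and 3.54 CPM in the KO neonates, and at 2.29, 6.39 and 1.64 CPM in the WT adults against 1.13, 0.689 and 2.69 CPM in the KO adults. Its highest and lowest libraries were those of the members at both ages. Cckar was the only such gene in the list of gut partners of pancreatic digestion, 1 of 5 tested in neonates and 1 of 4 in adults.

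Islet hormones were measured in neonates. Ins2, an insulin gene, was at 3.05, 5.57 and 34.6 CPM in the WT neonates against 13.8, 21.8 and 2.02 CPM in the KO neonates, and in adults did not exceed 1.24 CPM. Ins1, the other insulin gene, was at 2.11, 2.57 and 8.88 CPM in the WT neonates against 4.42, 6.25 and 0.675 CPM in the KO neonates. Both had WT 3 highest and KO 3 lowest in neonates, as the members did, but KO 1 held more Ins2 than WT 2, against the order of the members. Of the 10 islet genes listed, 3 of the 7 tested in neonates (Ins1, Ins2 and Iapp) and 0 of the 3 tested in adults had the members' highest and lowest library, and Slc30a8 and G6pc2 were at 0 in all adult libraries. The summed level of the islet list was 56.1 to 105 CPM in WT against 50.6 to 84.6 CPM in KO neonates, and 50.1 to 58.0 CPM in WT against 49.2 to 55.0 CPM in KO adults. Gcg and Sst of this list are also made by gut endocrine cells. The 9 genes of pancreatic duct and Brunner gland, the mucous gland of the duodenal wall, had this order in 2 of 7 tested in neonates (Muc6 and Tff2) and in 0 of 7 in adults.

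Stomach genes showed another library pattern. Gkn2, a gastrokine of the stomach surface, was at 69.3, 25.7 and 18.0 CPM in the WT neonates against 19.6, 0.240 and 4.55 CPM in the KO neonates, and at 81.3, 84.5 and 14.1 CPM in the WT adults against 3.30, 7.28 and 7.64 CPM in the KO adults. It was highest in WT 1 among neonates and in WT 2, closely followed by WT 1, among adults, and its lowest libraries were KO neonates 2 and KO adults 1, not those of the acinar genes. None of the stomach genes tested (4 in neonates, 5 in adults) had the members' highest and lowest library, and Atp4b, a subunit of the acid pump, was at 0 in all 12 libraries. The stomach list summed to 116 to 219 CPM in WT against 45.7 to 95.5 CPM in KO neonates, and to 76.2 to 283 CPM in WT against 27.1 to 48.6 CPM in KO adults. In the liver, fat and Paneth cell lists 0 of 5, 0 of 1 and 0 of 12 tested neonate genes had the order of the members, and 1 of 4, 0 of 4 and 1 of 12 tested adult genes. In the Reg family, secreted lectins of gut and pancreas, Reg1 and Reg3d had it in neonates and Reg3d in adults.

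The proportions of the 8 members other than Clps and Pnlip within a library varied less than their levels, and most of them differed between the ages. Adult Clps did the opposite, with a ratio to the sum of these 8 that ranged 8.86-fold and a level that ranged 2.28-fold. Levels were compared per length, as RPKM in percent of the summed RPKM of 8 members. Clps and Pnlip were left out of that sum after their values were seen, and a higher share of 1 of the 8 lowers the others. Ctrb1 was the largest of the 8 in neonates, with 40.1 to 43.6% over the 6 neonate libraries, against 22.3 to 27.6% over the 6 adult libraries, where Cela2a came close to it. Cel likewise had a higher share in neonates, 8.48 to 9.42% against 5.0004 to 5.74%. Cela1 made up 2.88 to 5.68% in neonates and 9.46 to 12.6% in adults, a 2.77-fold higher median and the widest change in ratio among the 8. Cela2a (12.96 to 14.4% and 18.6 to 22.8%), Prss2 (9.18 to 11.7% and 14.8 to 18.9%) and Cpa1 (5.38 to 5.96% and 6.58 to 7.48%) also had higher shares in every adult library than in any neonate one. For Cela3b and Cpb1 the ages overlapped. These ratios are taken within a library, so depth and the total level of these genes cancel, but age and table cannot be told apart and no test was made. In WT adults 2 and KO adults 2, the extremes in amount, Ctrb1 stood at 22.5% and 22.3%, Cela2a at 22.5% and 18.6%, Prss2 at 16.5% and 18.9%, and Cpb1 at 10.2% and 11.8%. KO adults 2 held the lowest adult share of Cela2a, Cela3b, Ctrb1 and Cpa1 and the highest of Cela1, Cpb1 and Prss2. Between genotypes the shares of 2 members did not overlap in adults, while those of 8 did. Cela2a made up 22.5 to 22.8% in WT and 18.6 to 20.1% in KO libraries, and Cel 5.68 to 5.74% and 5.0004 to 5.29%. In neonates only Cela3b was without overlap, at 3.46 to 4.35% in WT and 4.53 to 4.76% in KO libraries, while 9 members overlapped. With 3 libraries against 3 an exact two-sided permutation test cannot reach the threshold, and these ratios were not tested. They are tied to 1 sum and have no share over all genes to set beside them, so no conclusion on genotype is drawn from these counts.

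Against the same sum, Pnlip stood at 0 to 0.0558% in neonates and 12.1 to 13.2% in adults. Pnliprp1, a lipase-related protein, had the opposite pattern, with 18.4 to 23.3% and 2.72 to 5.67%. As CPM, Pnliprp1 was at 338, 742 and 1486 CPM in the WT neonates against 393, 783 and 268 CPM in the KO neonates, and at 79.2, 259.8 and 112 CPM in the WT adults against 67.3, 26.0 and 83.8 CPM in the KO adults. The trypsinogen entries also differed: Prss1 stood at 0.621 to 1.19% in neonates and 0 to 0.0132% in adults, whereas Try4 stood at 1.11 to 1.92% and 4.88 to 7.49%, with the reservation on near-identical copies made above. Pla2g1b (0.0791 to 0.148% and 1.13 to 1.56%), Gp2, the main membrane protein of zymogen granules (0.111 to 0.183% and 0.533 to 0.792%), and Sycn (1.32 to 1.94% and 4.13 to 5.04%) were higher in all adult libraries. Ctrl (5.55 to 7.45% and 6.47 to 7.84%) overlapped between the ages.

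**Figure D3:**
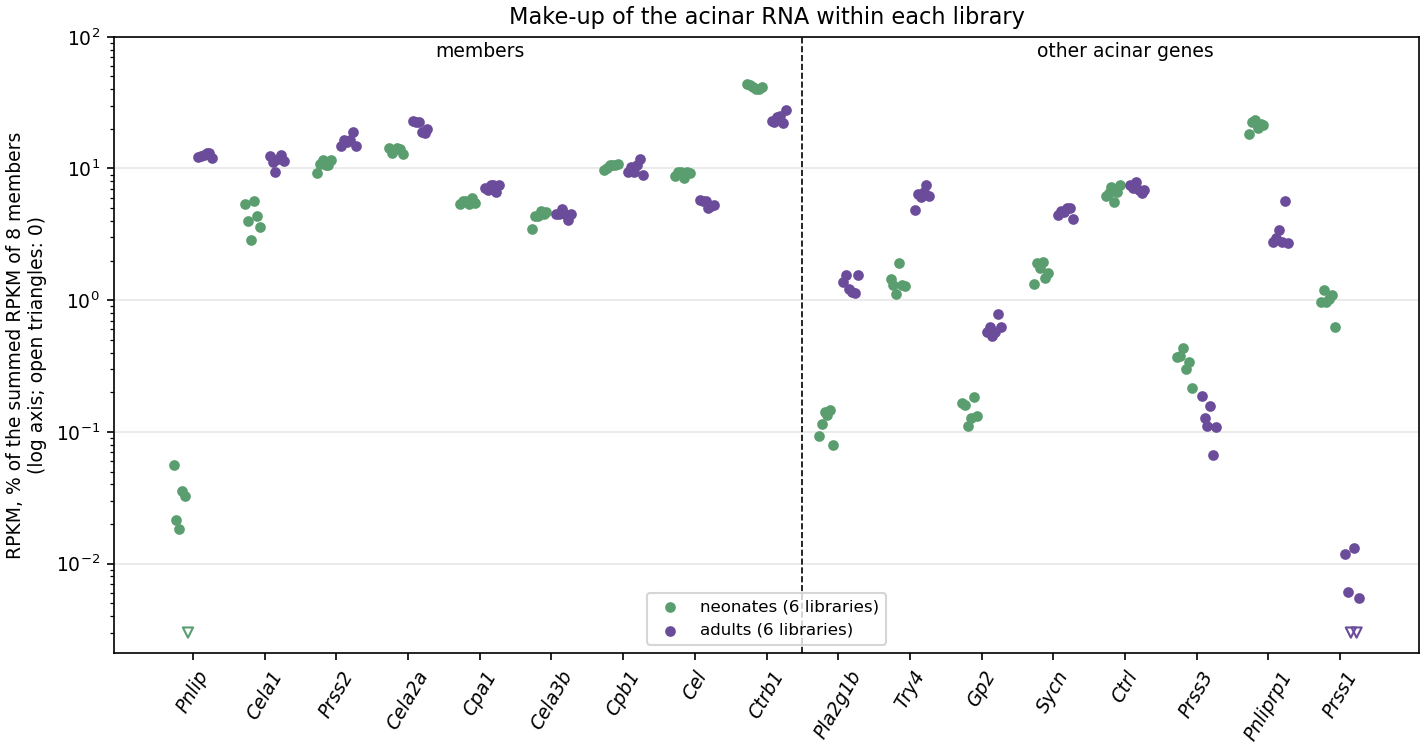
RPKM of single acinar genes as a percent of the summed RPKM of 8 members (all but Clps and Pnlip) in each library, on a log axis, for 6 neonate (green) and 6 adult (purple) libraries. Open triangles at the bottom are values of 0. The libraries of an age lie close together for most genes shown, while Pnlip and Pla2g1b are higher in adults, and Pnliprp1 and Prss1 in neonates. The genes were picked, and Clps, Klk1, Zg16, Spink3 and Pnliprp2, which ranged 8.86 to 22.5-fold over the adult libraries, are not shown.

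The comparison of KO with WT asks whether loss of intestinal NCoR1 went with another level of these genes. None of them passed the test at either age. In adults limma called 0 of the 10 members at an adjusted p under 0.05, against 19.4% of the 13463 genes tested (5.50% higher and 13.9% lower in KO, that is 741 and 1870 genes, or 1334 and 854 with TMM factors), and 0 had an unadjusted p under 0.05. In neonates it called 0 of the 9 tested, with 0 at an unadjusted p under 0.05, against 21.2% of 14215 (5.21% higher and 16.0% lower, that is 741 and 2268 genes, or 1278 and 1098 with TMM factors), and Pnlip was too low to test. The adult log2 differences ran from -1.75 for Cela2a (SE 0.992, limma adjusted p = 0.302) to -0.49 for Clps (SE 0.324, limma adjusted p = 0.366). The 95% interval for Cela2a ran from -4.46 to 0.96, and for Clps from -1.34 to 0.37, both on the log2 scale and both including 0. In neonates the differences ran from -0.78 for Ctrb1 (SE 0.640, limma adjusted p = 0.475) to -0.49 for Cela3b (SE 0.718, limma adjusted p = 0.690). The point estimate was below 0 for all 10 members in adults and all 9 tested in neonates. Since most members rose and fell together over the libraries, these estimates are not separate observations. The median over the members was -1.45 in adults and -0.65 in neonates, beside -0.11 for all genes tested at each age. With TMM factors the median of all genes was -0.02 in neonates and -0.00324 in adults, and that of the members -0.55 and -1.33.

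With 1 library left out every adult estimate stayed below 0, from -2.29 to -0.87 for Cela2a and -0.79 to -0.20 for Clps. WT 2 was the highest adult library for all 10 members and KO 2 the lowest for 9. Leaving out both was therefore bound to shrink the differences. Without both libraries, an alternative added after these values were seen, the median of the members was -0.14, beside -0.09 for all genes tested, and the differences ran from -0.38 for Cela2a (limma adjusted p = 0.117) to -0.03 for Ctrb1 (0.937), with 0 of 10 called. Without WT adults 1 alone, Clps was called (log2 difference -0.79, limma adjusted p = 0.00583). In neonates the estimate for Cela3b was 0.02 without WT 3. In the authors' deposited table the false discovery rate of the members ran from 0.0574 (Cela3b) to 0.320 (Ctrb1) in adults and from 0.257 (Ctrb1) to 1 (Pnlip) in neonates. The KO effect in adults minus that in neonates was called for 0 of the 9 members tested at both ages, with 0 at an unadjusted p under 0.05, against 5.46% of 14588 genes (3.02% higher and 2.44% lower). Pnlip passed the filter of that fit through its adult libraries alone, so its value measures no difference between KO effects and is left out. For the 9 members tested at both ages it ran from -1.09 for Cela3b to 0.09 for Clps.

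**Figure D4:**
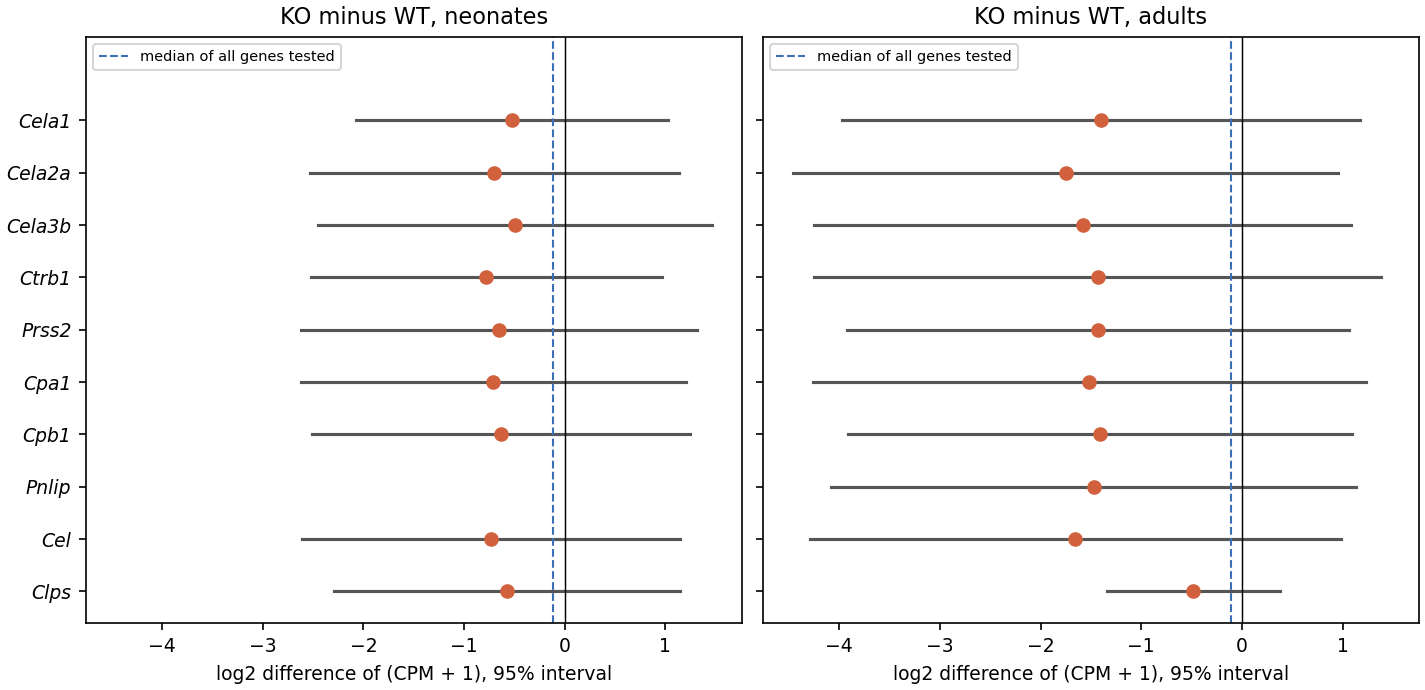
Log2 difference KO minus WT of each member on the log2(CPM + 1) scale in neonates (left) and adults (right), with limma's 95% interval. The dashed line is the median of all genes tested. All intervals include 0, and that of adult Clps is the narrowest among the adult genes; Pnlip was not tested in neonates.

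The gut's own partners of pancreatic digestion were compared in the same fits. Tmprss15, which encodes enteropeptidase, the brush border enzyme that activates trypsinogen, rose in KO neonates, from 19.6, 11.9 and 13.03 CPM in WT to 53.5, 62.4 and 39.96 CPM in KO (log2 difference 1.75, SE 0.245, limma adjusted p = 0.00613). All 3 KO libraries lay above all 3 WT libraries. In adults Tmprss15 was at 223, 185 and 111 CPM in the WT adults against 214, 202 and 237 CPM in the KO adults (log2 difference 0.38, limma adjusted p = 0.406). The KO effects at the 2 ages differed by -1.37 (limma adjusted p = 0.106), and DESeq2 on recovered reads called that difference (adjusted p = 0.00655). The exon length counted for Tmprss15 was 3691 bases in the neonate and 4152 bases in the adult table, and its part in the difference between ages was not tested. Cck and Sct, the gut hormones that set off pancreatic secretion, were not called at either age. Cck was at 28.9, 29.0 and 30.4 CPM in the WT neonates against 36.0, 26.9 and 27.0 CPM in the KO neonates, and Sct at 26.1, 22.2 and 28.4 CPM in the WT neonates against 26.0, 20.8 and 23.8 CPM in the KO neonates.

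Of the 18 other acinar secretory genes tested at each age, limma called 1 lower in KO neonates (Spink3) and 2 lower in KO adults (Spink3 and Zg16), and 0 higher. Among all genes tested, 16.0% were called lower and 5.21% higher in KO neonates, and 13.9% and 5.50% in KO adults. Spink3, a trypsin inhibitor, differed by -0.27 in neonates and -0.40 in adults (limma adjusted p = 0.00399 and 0.0139), and both calls were lost with TMM factors (adjusted p = 0.0613 and 0.110). Zg16, a lectin of zymogen granules and of goblet cells, was at 2928, 2684 and 2374 CPM in the WT adults against 1976, 1599 and 2029 CPM in the KO adults (-0.51, limma adjusted p = 0.00675, 0.0901 without WT 2 and KO 2). Neither had both the highest and the lowest library of the members at either age, and no gene of the list that had them was called. The list's median was -0.49 in neonates and -1.02 in adults, between that of the members and that of all genes. Of 5 tested acinar transcription factors, limma called Gata4 lower in KO neonates (-0.27, adjusted p = 0.00642, 0.0766 with TMM factors) and Nr5a2 lower in KO adults (-0.39, adjusted p = 0.0391, 0.135 with TMM factors). Both are also made in gut epithelium. Nr5a2 had WT 2 highest and KO 2 lowest in adults, so leaving out both was bound to shrink its difference, and its limma adjusted p was then 0.409. Of the islet list limma called Pdx1, a factor of duodenum and islet, higher in KO neonates (0.51, adjusted p = 0.0311), a call lost without WT 2, WT 3, KO 1 or KO 2 (adjusted p = 0.103, 0.125, 0.149 and 0.0805), and called 0 of 3 in adults.

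Markers of other tissues and cells that moved with genotype are given here, since the members were lower on average in KO libraries as well. Beside the counts below, 5.21% of all genes tested were called higher and 16.0% lower in KO neonates, and 5.50% and 13.9% in KO adults. With TMM factors fewer genes were called lower and more were called higher at both ages. The summed level of stomach genes, with 76.2 to 283 CPM in WT against 27.1 to 48.6 CPM in KO adults, did not overlap between the genotypes at either age, and the median log2 difference of the stomach genes tested was -1.58 in neonates and -1.59 in adults. Of them limma called Gkn3 lower among 4 tested in KO neonates and Pgc lower among 5 tested in KO adults, and Atp4b stayed at 0. In the list of pancreatic duct and Brunner gland it called Cftr lower in KO libraries at both ages. Tff2, a mucous peptide of Brunner glands and stomach, was at 167, 87.2 and 105 CPM in the WT adults against 61.9, 33.6 and 25.8 CPM in the KO adults (-1.59, limma adjusted p = 0.0827). Of 12 Paneth cell genes 1 was called higher in KO neonates and 6 lower in KO adults. Of 4 duodenal genes 2 and 1 were called higher in KO neonates and adults, and of 5 ileal genes 2 were called higher in KO neonates and 1 lower in KO adults. In the Reg family limma called Reg3a and Reg4 in opposite directions in neonates and 0 of 7 in adults. Of the liver list it called 1 of 5 higher and 3 lower in KO neonates and 1 of 4 lower in KO adults, and of the fat list 0 of 1 and 0 of 4. Of the epithelium genes 2 of 7 were called higher and 4 lower in KO neonates, and 2 of 8 lower in KO adults. The part of these tissues in the levels of the members was not tested.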

How the data were processed

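RNA of whole small intestine was sequenced in 12 libraries, 3 for each of 4 groups. Per the file headers, the authors counted reads in exons on the opposite strand with HOMER for mm9, condensing the isoforms of a gene, and per the submitters' processing notes aligned them with Bowtie 0.12.2. The deposited expression values (a signal) are reads divided by 1 factor per library, and whole reads were recovered from them within 0.01. The authors also deposited RPKM, a log2 fold change and p-values with a false discovery rate, whose test the sources used here do not name. They do not say either how reads that match several places were treated. Labels do not say that libraries come from separate litters, so p-values measure the spread between these pools of 2 mice.

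Here deposited values were scaled to CPM (counts per 1000000), a gene was kept where 3 or more libraries held at least 1 CPM, and log2(CPM + 1) was tested with limma 3.58.1 (R 4.3.3, trend, robust), KO minus WT within an age, with Benjamini-Hochberg adjustment over all genes at 0.05. Fold changes on this scale understate the change of low genes. The KO effects of the 2 ages were compared in 1 fit of 4 groups. The tables of the ages were scaled separately, so levels between ages were not tested. Alternatives were TMM factors, a library total without acinar genes, another pseudocount, other filters, edgeR 4.0.16 and DESeq2 1.42.0 on recovered reads, a replicate block and each library left out. The fits were tested on simulated data. The members and the 14 lists were chosen with earlier results of these data known. Named genes are Ncor1, the members, genes of the lists and the 10 genes most alike, of which some results are not reported here. Pdia2, Tmprss6, 2210010C04Rik and the genes of the other observations were named after their values were seen. Wilson intervals (95%) cover counting error only.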

Additional observations from a re-analysis of the deposited data

Results flagged for a closer look

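The KO effect on Ncor1, the targeted gene, differed between the ages by a test of the difference itself. Ncor1 was at 447, 459 and 451 CPM in the WT neonates against 245, 213 and 235 CPM in the KO neonates, and at 239.5, 252 and 245 CPM in the WT adults against 159, 168 and 164 CPM in the KO adults. The log2 effect in adults minus that in neonates was 0.39 (SE 0.0897, limma adjusted p = 0.0128, range over the alternatives 0.00206 to 0.0427), that is, a smaller fall in adults. The exon length counted was the same in both tables. For the 9 acinar genes tested at both ages limma called such a difference 0 times.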

How the results depend on the processing

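The count of members called stayed at 0 under every alternative in every comparison, except without WT adults 1, where 1 (Clps) was called in adults (range 0 to 1). Of the members' log2 values, 469 kept direction and side of the threshold, a count that includes Pnlip in the difference. Another 6 turned sign, all with 1 library left out. These were Cela3b in neonates without WT 3 (range -1.03 to 0.015), and in the difference between ages Clps without WT neonates 3, KO neonates 3 or WT adults 1 (-0.38 to 0.54), and Ctrb1 (-1.24 to 0.28) and Cpa1 (-1.34 to 0.10) without KO adults 2. Adjusted p of members ran from 0.336 to 0.991 in neonates and 0.00583 to 0.937 in adults. For the difference it ran from 0.592 to 0.996, with Pnlip left out. Genes called numbered 1585 with DESeq2 in neonates, against 3009, and 1082 in adults without WT 2 and KO 2, against 2611. With 1 library left out they ran from 2020 to 2581 in neonates, 1281 to 2552 in adults (1483 without WT 2, 1605 without KO 2, 1281 without KO 3) and 517 to 1047 for the difference, against 796 (517 without WT neonates 2, 529 without KO adults 3). A lone sample was never left, since each arm kept 2. With a replicate block 3575 genes were called in neonates, 2272 in adults and 792 for the difference, with 0 members. Same-numbered WT and KO libraries correlated in their deviations at 0.160, 0.139 and 0.0286 in neonates and 0.0616, -0.212 and -0.121 in adults. WT and KO libraries of different numbers correlated at -0.183 to 0.0422 in neonates and -0.129 to 0.229 in adults. Whether the numbers pair the samples was not tested, and in neonates these values do not exclude it. Depth limits Pnlip in neonates, with 0 to 9 reads a library.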

Other observations

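Beyond the lists, a few genes known from the exocrine pancreas followed the 10 acinar genes at low levels. They were named after their values were seen, and their source was not tested. Erp27, an endoplasmic reticulum protein, was at 1.88, 3.75 and 6.87 CPM in the WT neonates against 2.27, 3.25 and 1.01 CPM in the KO neonates, and at 2.12, 6.21 and 1.64 CPM in the WT adults against 1.69, 0.230 and 1.68 CPM in the KO adults (lower r with the members 0.957 over 6 libraries of an age). Serpini2, also called pancpin, was at 3.40, 8.46 and 15.3 CPM in the WT neonates against 3.79, 9.98 and 3.88 CPM in the KO neonates, and at 4.33, 14.4 and 4.81 CPM in the WT adults against 3.46, 0.919 and 3.02 CPM in the KO adults (lower r 0.952). Pdia2 was at 10.3, 29.7 and 12.6 CPM in the WT adults against 7.33, 1.68 and 13.4 CPM in the KO adults (lower r 0.934). Aqp12, an aquaporin of acinar cells, did not exceed 3.28 CPM, with WT 2 again the highest adult library (lower r 0.923). These values share the libraries and the scaling of the members. The provisional gene 2210010C04Rik was as abundant as some members, at 97.8, 182 and 423 CPM in the WT neonates against 123, 198 and 70.1 CPM in the KO neonates, and at 252, 859.9 and 317 CPM in the WT adults against 246, 47.3 and 276 CPM in the KO adults.

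A gene of another gut region varied even more among the adult libraries, in another order. Car1, a carbonic anhydrase abundant in colon, was at 1.36, 0.178 and 607 CPM in the WT adults against 16.02, 0.689 and 0.252 CPM in the KO adults, and did not exceed 0.1201 CPM in neonates. The library that stood out was WT adults 3, which held neither the highest nor the lowest level of any of the 10 acinar genes.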
